A study of Mus musculus with 6 samples.

Results

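Matricellular proteins are secreted glycoproteins of the extracellular matrix that bind collagens, growth factors and cell surface receptors and tune how cells attach to the matrix, without forming its main structural fibres. Their transcript levels were examined in mouse intervertebral discs (IVDs) for 10 genes chosen by symbol, of the 43472 gene symbols in the count files. The 10 are Sparc (osteonectin), Postn (periostin), Tnc (tenascin C), Thbs1, Thbs2, Thbs3, Thbs4 and Comp (the thrombospondin family), and Smoc1 and Smoc2 (SPARC-related modular calcium-binding proteins). All 10 passed the filter on low counts, so none is missing from the 16152 genes tested.

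The libraries were poly(A) RNA-seq of whole discs from T8 to L5 of C57B6/J mice at postnatal day 20. The 3 mutant libraries came from Col2Cre; Adgrg6f/f mice, in which Adgrg6 (listed in the files by its older symbol Gpr126), an adhesion G protein-coupled receptor, is deleted where the Col2 promoter drives Cre. The 3 control libraries are labelled wild type, are titled Col2Cre control, and are Cre (-) littermates in the study's results. The study thus describes controls without the transgene, while the titles name it, and the difference is not settled here. Each library pooled discs of 2 to 3 mice, and Col2Cre recombines throughout the disc and also in neighbouring skeletal tissue. The comparison asks how transcript levels in the disc differ when Adgrg6 is lost. Each library is a separate pool, so that a p-value measures the spread between pools. In whole discs, a difference in the number of cells of a type cannot be told apart from a difference in RNA per cell.

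Counts on genes ran from 9061491 to 12017008 per library, on 20421 to 23133 genes with at least 1 count. Gpr126 itself was at 94.3 to 124 CPM (counts scaled to library size, per 1e6) in controls and 106 to 138 CPM in mutants, and counts over the whole gene do not measure the deleted part. Cartilage markers (Col2a1, Acan and 6 others) summed to 76246 to 138653 CPM per library, and all 8 were measured in both groups. The nucleus pulposus markers summed to 2423 to 5841 CPM, while Noto had 1 count over all 6 libraries. Control replicate 1 stood apart in 8 skeletal muscle markers, which summed to 4122 CPM there and to 72.6 to 176 CPM in the other libraries. Values without that library are therefore given beside the results that rest on it.

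In tendon, ligament and the annulus fibrosus, the outer ring of the disc, periostin, tenascin C, thrombospondin 2 and thrombospondin 4 accompany type I collagen and are known to be abundant in loaded or healing tissue. Cartilage oligomeric matrix protein (Comp) and thrombospondin 3 are typical of cartilage, and Sparc is a collagen-binding protein of bone, disc and other collagen-rich matrices. Postn, Tnc, Thbs2 and Thbs4 each had a higher mean level in mutants, at an unadjusted p under 0.05, and the 150 bases before the annotated start of each are shown for that reason. They come from the RefSeq promoter table (GRCm38.p6), which matched 6 of the 10 genes, and are written 5′ to 3′ on the strand of the gene, with capitals for matches to the motifs searched. The windows are chr3:54360957-54361106 (plus strand) for Postn, chr4:64047016-64047165 (minus strand) for Tnc, chr17:14694263-14694412 (minus strand) for Thbs2 and chr13:92794819-92794968 (minus strand) for Thbs4.
Postn: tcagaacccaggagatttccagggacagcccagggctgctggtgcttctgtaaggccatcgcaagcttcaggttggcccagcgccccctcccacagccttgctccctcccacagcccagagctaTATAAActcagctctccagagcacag
Tnc: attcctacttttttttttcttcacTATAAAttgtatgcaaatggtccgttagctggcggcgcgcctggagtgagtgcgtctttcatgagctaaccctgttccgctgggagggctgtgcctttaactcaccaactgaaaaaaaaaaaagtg
Thbs2: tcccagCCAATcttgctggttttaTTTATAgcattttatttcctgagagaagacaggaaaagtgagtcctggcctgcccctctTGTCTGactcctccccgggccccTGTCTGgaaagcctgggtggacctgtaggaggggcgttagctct
Thbs4: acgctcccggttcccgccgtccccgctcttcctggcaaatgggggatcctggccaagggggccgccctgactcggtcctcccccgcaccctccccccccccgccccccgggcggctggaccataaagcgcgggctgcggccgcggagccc

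The motifs were searched on both strands. They were a TATA box as TATAAA, an AP-1 site as TGANTCA, a TEAD site as GGAATG, a SMAD site as CAGACA, a STAT site as TTCNNNGAA and a CCAAT box as CCAAT. In the Postn window, TATAAA began 26 bases before the start used here, the downstream one of 2 in the table, and the window of the other start held none of the motifs. In the Tnc window it began 126 bases before the start used here, the upstream one of 2. The window of the other start held CAGACA on the opposite strand and no TATAAA. That other window did hold tatataag, which the search for the exact letters TATAAA does not match. The Thbs2 window held TATAAA on the opposite strand at 126 bases, CAGACA on the opposite strand at 67 and 44 bases, and CCAAT at 144 bases. The Thbs4 window held none of the 6 motifs, and had the highest GC content at 77.3%, against 60% for Postn, 53.3% for Thbs2 and 44.7% for Tnc. No motif was shared by all 4 windows. Of the other matched genes, Sparc had CAGACA on the opposite strand at 36 bases and Thbs3 had CCAAT on the opposite strand at 98 bases. Over 32851 promoter windows of the same length, 7.57% held TATAAA, 10.3% CAGACA, 24.5% CCAAT, 7.59% GGAATG, 4.24% TGANTCA and 4.09% TTCNNNGAA. A match describes letters only, and a window without one says nothing of the factor.

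Across the 10 genes, Postn, Tnc, Thbs2 and Thbs4 had an unadjusted p under 0.05 for mutant against control, all with the mutant higher. None of the 10 passed an adjusted p of 0.05 by edgeR's quasi-likelihood test, adjusted by the Benjamini-Hochberg method across 16152 genes. Over all genes tested, 7.21% had an unadjusted p under 0.05, 2.89% with the mutant higher and 4.32% with the mutant lower, and 0.00619% (1 gene) passed the adjusted threshold. DESeq2 on the same counts called 2 of the 10 at adjusted p, Postn and Thbs4, and 0.36% (58 of the 16115 genes with an adjusted p) of all genes. The log2 fold change was above 0 for 8 of the 10 genes, against 48.4% of all genes tested, and its median was 0.23 over the 10 and -0.01 over all genes. The 8 include Sparc and Thbs1, both near 0, and the count was 6 with library totals alone, with limma-voom and quality weights, without control replicate 3 and without mutant replicate 2, and 7 without control replicate 1 or mutant replicate 3. Without control replicate 2 the median over the 10 was 0.35. Without control replicate 1, edgeR called 3 of the 10 at adjusted p (Postn, Tnc and Thbs4), with 0.181% of all genes called (31 of 17164).

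**Figure D1:**
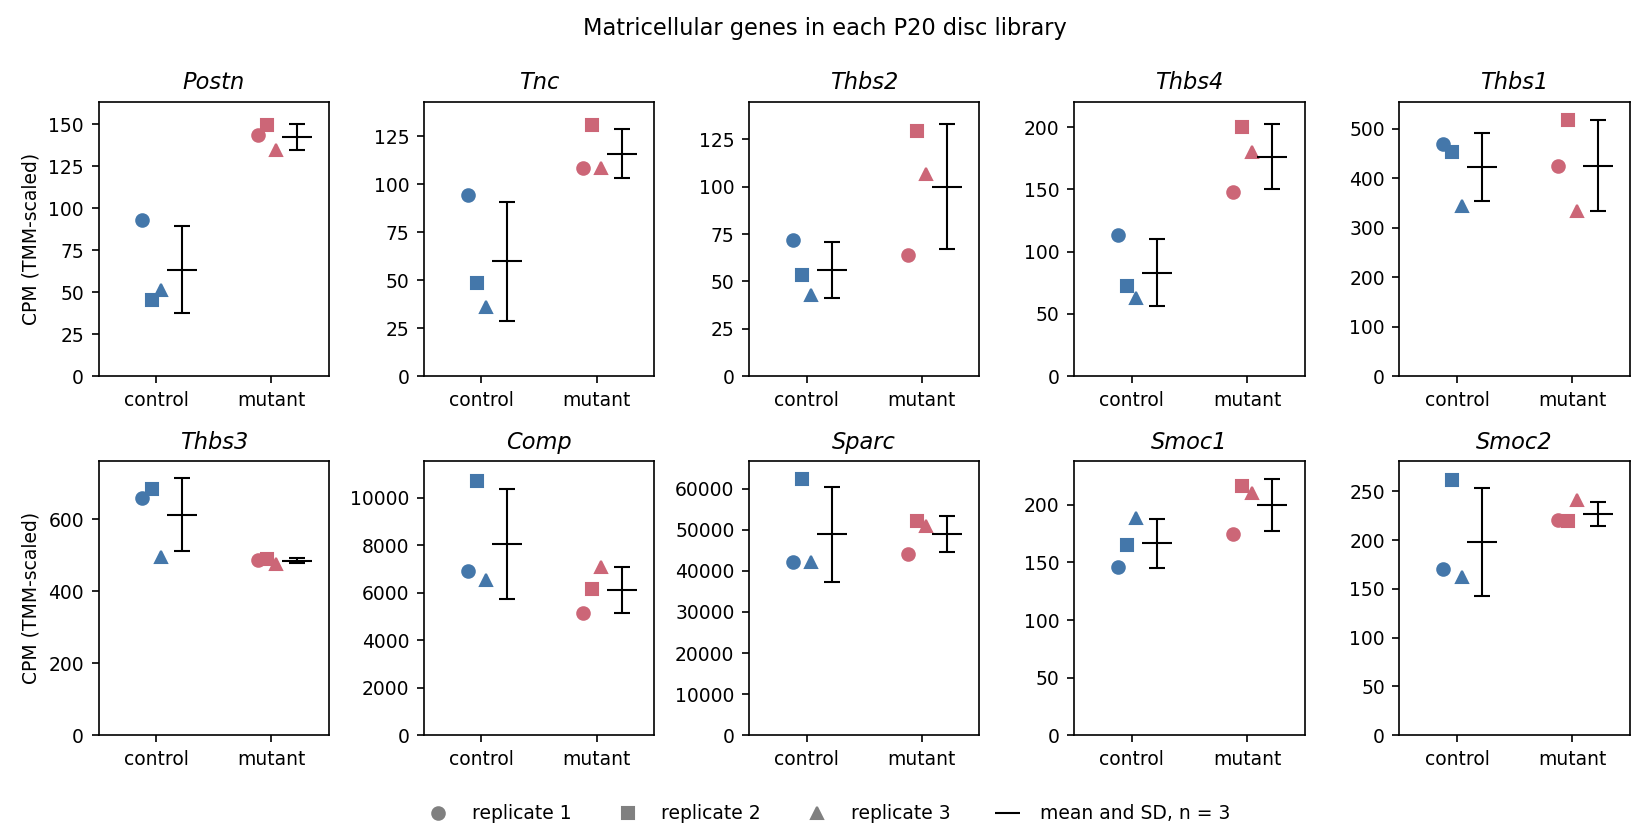
CPM with TMM-scaled library sizes (vertical axes from 0, one scale per gene) of the 10 genes in each control and mutant library, with a bar for the mean and SD of 3 libraries and a marker shape per replicate number. All 3 mutant libraries lie above all 3 controls for Postn, Tnc and Thbs4 and below them for Thbs3, and the groups overlap for the other genes.

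Periostin, which binds type I collagen and helps bring the collagen-processing protease Bmp1 and fibronectin together during fibril assembly, had one of the smallest p-values of the 10. Postn (ENSMUSG00000027750, chr3:54361109-54391037) was at 93.3, 45.5 and 51.5 CPM in control replicates 1, 2 and 3, and at 143, 149.5 and 135 CPM in the mutant replicates. The 3 mutant libraries were close to each other and all above the highest control, which was control replicate 1. The mean was 63.5 ± 26.0 CPM in controls and 143 ± 7.49 CPM in mutants (SD, n = 3 each), a fitted log2 fold change of 1.17 ± 0.26 (SE) with a 95% interval of 0.59 to 1.75. The unadjusted p was 0.00114, rank 31 of all genes, and the adjusted p by edgeR was 0.553. Adjusted p-values were 0.00529 with DESeq2 and 0.0187 by edgeR without control replicate 1, where the log2 fold change was 1.57. With weighted limma-voom the adjusted p was 0.151. With any other library left out it was 0.491 to 0.999 by edgeR, and the log2 fold change was 0.98 without control replicate 2. These values rested on 410 to 872 reads per control library and 1260 to 1832 per mutant library.

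Tenascin C is a large hexameric glycoprotein that loosens cell attachment and is known to be made in tendon and at sites of repair. Tnc (ENSMUSG00000028364, chr4:63959785-64047015) was at 94.5, 48.6 and 36.0 CPM in the controls and 109, 131 and 108 CPM in the mutants. The groups did not overlap, though control replicate 1 lay nearer to the mutants than to the other controls. In the fit, the log2 fold change was 0.96 ± 0.31 (SE, 95% interval 0.27 to 1.65), with an unadjusted p of 0.0112 and an adjusted p of 0.676 by edgeR. Without control replicate 1 it was 1.48 with an adjusted p of 0.0361 by edgeR. Without control replicate 3 it was 0.71 with an adjusted p of 0.999 by edgeR, and the adjusted p by DESeq2 was 0.155 with all libraries. On the opposite strand, the transcript 8030451A03Rik overlaps the gene and shares 176 bases of exon with it, which is 2.26% of the exon length of Tnc. Its counts were 0.292 to 0.377 of those of Tnc in the 6 libraries and its log2 fold change was 0.83 (unadjusted p 0.0148). The library kit as named does not mark strand, so that reads of the shared exon cannot be assigned to one of the genes.

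The thrombospondins fall into a trimeric subgroup, Thbs1 and Thbs2, which bind the receptor Cd36 through properdin-like repeats, and a pentameric subgroup, Thbs3, Thbs4 and Comp, which lack those repeats. In the trimeric subgroup, Thbs2 (ENSMUSG00000023885, chr17:14665500-14694235), a regulator of collagen fibril diameter and matrix protease clearance, was at 71.9, 53.4 and 43.1 CPM in controls and 64.2, 129.7 and 107 CPM in mutants. Mutant replicate 1 lay below control replicate 1, so the groups overlapped, while the other mutants were above every control. The log2 fold change was 0.84 ± 0.27 (SE, 95% interval 0.23 to 1.45), with an unadjusted p of 0.0121 and an adjusted p of 0.676 by edgeR. Without control replicate 1 it was 1.08, with an unadjusted p of 0.00322 and an adjusted p of 0.116 by edgeR. Its unadjusted p was 0.0525 without control replicate 3 and 0.0505 without mutant replicate 2.

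Thbs1 (ENSMUSG00000040152, chr2:118111876-118127133), known for activating latent TGF-β and for limiting blood vessel growth, was at 469, 453 and 344 CPM in controls and 423, 518 and 334 CPM in mutants. The groups overlapped over nearly their whole range. The log2 fold change was 0.01 ± 0.23 (SE, unadjusted p 0.962, adjusted p 0.993 by edgeR), and its 95% interval of -0.49 to 0.51 leaves room for differences of up to 1.43-fold in the direction of a higher mutant level. Gm29233, on the opposite strand, shares 208 bases of exon with Thbs1 and had 1345 counts over the 6 libraries against 26083.

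Thrombospondin 4, a pentameric protein of tendon and muscle attachments, had a p-value next to that of Postn. Thbs4 (ENSMUSG00000021702, chr13:92751590-92794818) was at 113, 72.7 and 62.9 CPM in controls and 148, 200.3 and 180.3 CPM in mutants. All mutant libraries were above all controls, and control replicate 1 was again the highest control. The mean was 83.0 ± 26.8 CPM against 176 ± 26.2 CPM (SD, n = 3 each), and the log2 fold change was 1.09 ± 0.24 (SE, 95% interval 0.55 to 1.63). The unadjusted p was 0.00114, rank 30 of all genes, with an adjusted p of 0.553 by edgeR and 0.00529 by DESeq2. Without control replicate 1 the log2 fold change was 1.40 with an adjusted p of 0.0389 by edgeR. With weighted limma-voom the adjusted p was 0.184. With any other library left out it was 0.491 to 0.999 by edgeR, and the log2 fold change was 0.93 without control replicate 3.

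The other pentameric members were lower on average in mutants without passing a threshold. Thbs3 (ENSMUSG00000028047, chr3:89215180-89226837) was at 659, 684 and 497 CPM in controls and 487, 491 and 477 CPM in mutants. The groups did not overlap, but the gap between 491 CPM in mutant replicate 2 and 497 CPM in control replicate 3 was narrow. The fitted log2 fold change was -0.34 ± 0.20 (SE, 95% interval -0.79 to 0.11), with an unadjusted p of 0.125 and an adjusted p of 0.749 by edgeR. Mtx1, a gene of mitochondrial protein import on the opposite strand, spans 89209081 to 89227088 on the same chromosome and shares 318 bases of exon with Thbs3, 6.59% of its exon length. The counts of Mtx1 were 1.01 to 1.13 times those of Thbs3 in every library, and its log2 fold change was -0.28 (unadjusted p 0.186), so that the values of Thbs3 are uncertain where the counting could mix the genes.

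Comp (ENSMUSG00000031849, chr8:70373558-70382066), a cartilage protein whose mutations cause pseudoachondroplasia, was at 6934, 10714.5 and 6520 CPM in controls and 5126, 6145 and 7077 CPM in mutants. Control replicate 2 was the highest library and the other controls lay within the mutant range. Mutant over control, the log2 fold change was -0.40 ± 0.31 (SE, 95% interval -1.09 to 0.30, unadjusted p 0.233, adjusted p 0.804 by edgeR). Without control replicate 2 it was -0.14 and without mutant replicate 1 it was -0.25.

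Sparc (ENSMUSG00000018593, chr11:55394500-55423183) had the second highest mean CPM of all genes tested, and mice that lack it are known for early disc degeneration. It was at 42227, 62279 and 42129 CPM in controls and 44068, 52065 and 50796 CPM in mutants. The mutant libraries lay inside the control range. The means were 48879 ± 11605 and 48976 ± 4298 CPM (SD, n = 3 each), a log2 fold change of 0.00 ± 0.39 (SE, unadjusted p 0.994, adjusted p 0.999 by edgeR). Its 95% interval by edgeR of -0.87 to 0.87 reaches from 0.549-fold to 1.83-fold, so this fit does not resolve a difference smaller than that. The SE was smaller with other tools, at 0.20 with DESeq2 and 0.26 with weighted limma-voom. Sparc alone took 3.93% to 6.19% of all counts on genes, and the 10 genes together 4.54% to 7.43%.

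Smoc1 and Smoc2 carry a calcium-binding domain like that of Sparc, and Smoc1 is known to restrain BMP signalling. Smoc1 (ENSMUSG00000021136, chr12:81026808-81186414) was at 146, 166 and 189 CPM in controls and 174, 216 and 209.9 CPM in mutants. Smoc2 (ENSMUSG00000023886, chr17:14279506-14404790) was at 171, 262 and 162 CPM in controls and 220.2, 219.8 and 241 CPM in mutants. Both pairs of groups overlapped, through control replicate 3 for Smoc1 and control replicate 2 for Smoc2. The log2 fold change was 0.26 ± 0.18 (SE) for Smoc1 (95% interval -0.15 to 0.67, adjusted p 0.785 by edgeR). For Smoc2 it was 0.20 ± 0.22 (SE, 95% interval -0.29 to 0.68, adjusted p 0.853 by edgeR), while leaving out control replicate 2 gave 0.44, leaving out control replicate 1 gave 0.12 and leaving out control replicate 3 gave 0.079. With library totals alone, the log2 fold change was 0.145 for Smoc1 and 0.092 for Smoc2.

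**Figure D2:**
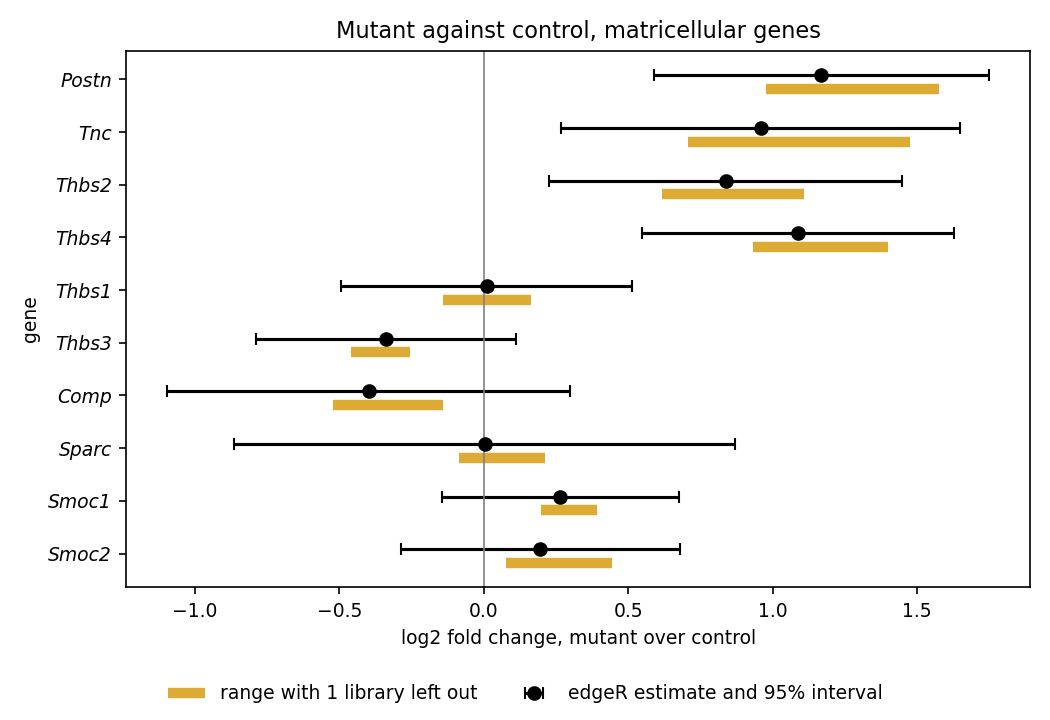
Log2 fold change of mutant over control (horizontal axis) for each gene, as the edgeR estimate with its 95% interval in black and the range of estimates with 1 library left out in yellow. The intervals of Postn, Tnc, Thbs2 and Thbs4 lie above 0, from 0.59 to 1.75 for Postn, and those of the other 6 genes include 0.

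By whether groups overlapped, 4 of the 10 genes were separated between mutants and controls, 3 with the mutant higher and 1 with the mutant lower. Over all genes tested, 11.4% were separated, 5.45% with the mutant higher and 5.96% with the mutant lower. Deviations of each library from the mean of its gene show the pattern by library. For Postn, Tnc, Thbs2 and Thbs4, control replicates 2 and 3 were lowest, with deviations in log2 CPM of -0.44 to -1.13. Control replicate 1 lay near the mean of these 4 genes, at -0.06 to 0.24, while mutant replicate 2 was the highest library for each of the 4, at 0.69 to 0.83. Mutant replicate 1 was at -0.18 for Thbs2 and at 0.32 to 0.63 for the other three. Comp and Sparc were highest in control replicate 2, at 0.63 and 0.36, the library where Postn was lowest at -1.02.

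**Figure D3:**
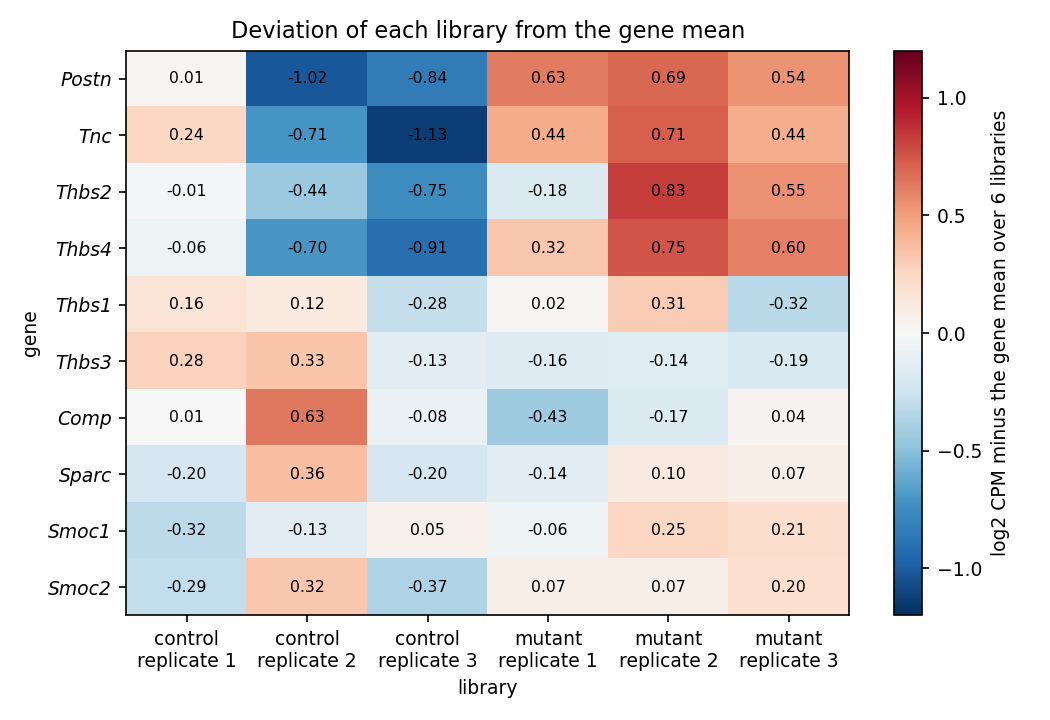
Deviation of log2 CPM in each library (columns) from the mean of that gene over 6 libraries (rows, 10 genes), in red where above and blue where below the mean. Control replicates 2 and 3 are blue for Postn, Tnc, Thbs2 and Thbs4, while control replicate 1 lies between -0.06 and 0.24 for them.

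Levels between genes were compared per kilobase of exon, using the exon lengths of GENCODE M21 on GRCm38. In controls, Sparc was at 12904 ± 3064 CPM per kilobase (SD, n = 3) and Comp at 2715 ± 779 CPM per kilobase. Thbs3 at 127 and Thbs1 at 69.5 CPM per kilobase came next, followed by Smoc1 at 47.7, Smoc2 at 28.5 and Thbs4 at 25.2. Thbs2 at 8.02, Tnc at 7.68 and Postn at 7.29 CPM per kilobase were lowest, and their ranges over libraries overlapped, as did those of Smoc2 and Thbs4. The other neighbours in this order had ranges that did not overlap. The range of mean control levels among the thrombospondins thus ran from Comp to Thbs2.

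In mutants, the mean level of Thbs4 was 53.6 CPM per kilobase, with a range of 45.1 to 60.9 that lay above the range of Smoc2 (31.6 to 34.7) and overlapped that of Smoc1 (49.9 to 61.9). Postn at 16.4, Tnc at 14.9 and Thbs2 at 14.3 CPM per kilobase remained the lowest 3 of the 10. With the longest transcript in place of all exons, Smoc2 came above Smoc1 in controls, at 49.9 and 47.7 CPM per kilobase, and Postn above Thbs2 and Tnc, at 12.1, 9.52 and 8.40. In mutants, Smoc2 then came above Thbs4, at means of 57.2 and 55.1 CPM per kilobase. Sparc was at 21251.5 CPM per kilobase in controls on that length, still the highest of the 10.

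**Figure D4:**
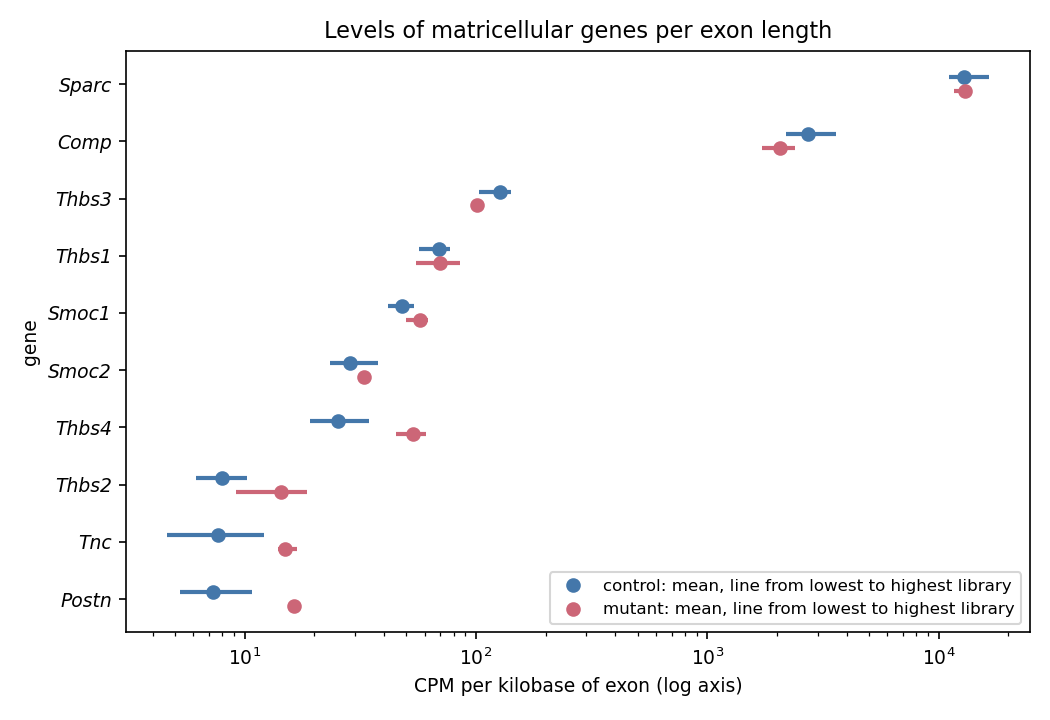
Level of each gene in CPM per kilobase of exon (horizontal log axis), as the mean of 3 control or 3 mutant libraries with a line from the lowest to the highest library. Sparc and Comp lie far to the right of the other genes, at 12904 and 2715 in controls, and the control and mutant lines are separate for Postn, Tnc, Thbs4 and Thbs3.

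Ratios between counts of 2 genes within a library do not depend on the scaling of libraries. For the pentameric pair, 1 read of Thbs4 stood against 61.1, 147 and 104 reads of Comp in controls and 34.6, 30.7 and 39.3 in mutants, with no overlap. The ratio of Thbs4 to Thbs3 was 0.172, 0.106 and 0.127 in controls and 0.305, 0.408 and 0.378 in mutants, again with no overlap. The ratio of Thbs2 to Thbs1 was 0.153, 0.118 and 0.125 in controls and 0.152, 0.250 and 0.319 in mutants, and mutant replicate 1 lay within the control range. Each read of Postn stood against 452, 1368 and 818 reads of Sparc in controls and 307, 348 and 377 in mutants. For Tnc the reads of Sparc numbered 447, 1281 and 1169 in controls and 406, 398 and 469 in mutants, and control replicate 1 lay within the mutant range. The ratios of Smoc1 to Smoc2 overlapped, at 0.632 to 1.16 in controls and 0.792 to 0.984 in mutants. These ratios are descriptions with no test.

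**Figure D5:**
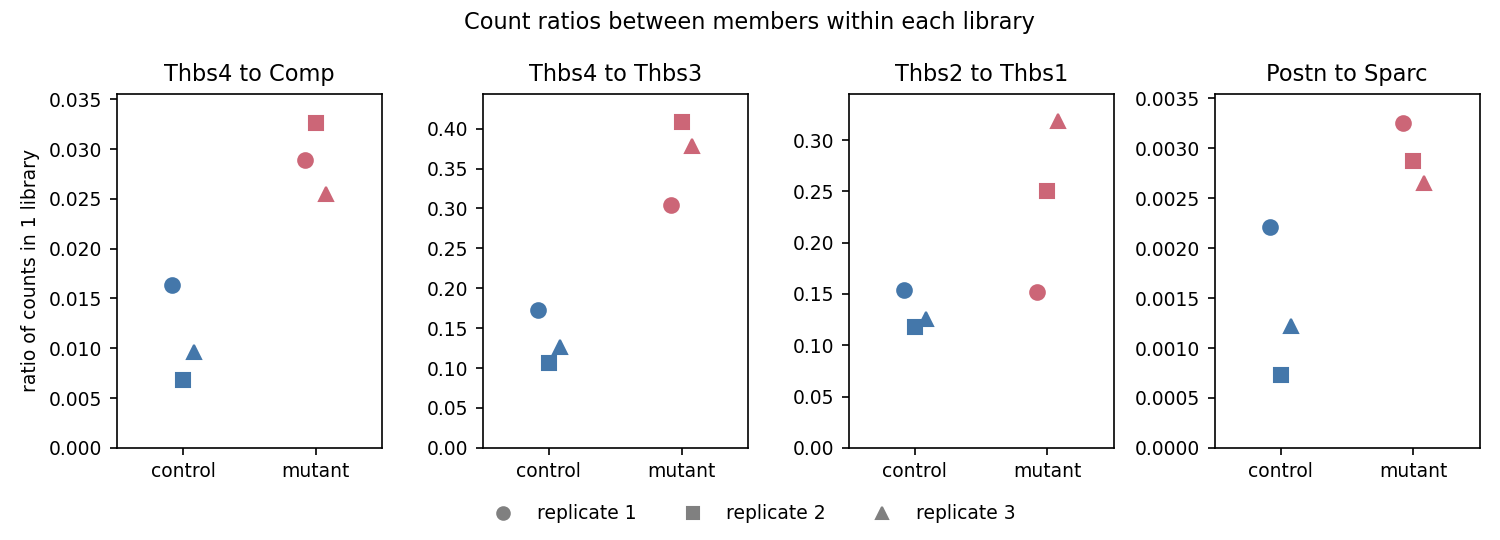
Ratio of the counts of 2 genes within each library (vertical axes from 0), for Thbs4 to Comp, Thbs4 to Thbs3, Thbs2 to Thbs1 and Postn to Sparc, with a marker shape per replicate number. Mutant libraries lie above all controls in each pair except Thbs2 to Thbs1, where mutant replicate 1 at 0.152 lies beside control replicate 1 at 0.153.

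For each gene, the most similar genes were those with the smallest root-mean-square difference in centred log2 CPM over 6 libraries, among 9964 genes with a mean of at least 10 CPM. The closest to Postn were Olfml2b (0.140), Igf1 (0.170) and Aqp1 (0.184). The closest to Thbs4 were Olfml2b (0.111), Col14a1 (0.169) and Tnc (0.177), so that both Postn and Thbs4 had Olfml2b as their nearest gene. The closest to Tnc were 8030451A03Rik (0.127), which overlaps it, Thbs4 (0.177) and Chst3 (0.195). The closest to Thbs2 were Tmem119 (0.132), Dkk3 (0.147) and Lhfpl2 (0.168). Among the 10, Postn and Tnc differed by 0.216 and Thbs2 and Thbs4 by 0.243, whereas Postn and Comp differed by 0.949 and Sparc and Smoc2 by 0.130.

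The genes that varied less had close neighbours of many kinds. Sparc was nearest to Emid1, Rpain and Polr1c (0.0524 to 0.0587), Thbs1 to Trit1, Tmem55a and Fam220a (0.0464 to 0.0547) and Thbs3 to Gm26716 and Mtx1 (0.0469 and 0.0484). Comp was nearest to Rpl34-ps1, Gm28959 and Cyba (0.0714 to 0.123), Smoc1 to Emc2, Ly6c1 and Tmem175 (0.0715 to 0.0793) and Smoc2 to Nr1h3, Steap3 and H2-D1 (0.0572 to 0.0789). A gene whose levels vary little has many genes within a small difference, so these values are not comparable between genes of unlike spread.

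Other matricellular genes formed a list of 23, all tested. None passed an adjusted p of 0.05 by edgeR, and 2 were higher and 4 lower in mutants at an unadjusted p under 0.05, against 2.89% and 4.32% of all genes tested. The median log2 fold change was 0.27, with 15 of 23 above 0, against 48.4% of all genes. Ccn3 (listed as Nov), a growth-restraining member of the CCN family, was at 7.37 ± 1.34 CPM in controls and 15.1 ± 1.68 CPM in mutants (SD, n = 3 each), a log2 fold change of 1.03 (unadjusted p 0.00180). Tnxb, a tenascin that spaces collagen fibrils, was higher by 0.65 on the log2 scale (unadjusted p 0.0180). The lower genes were Spock3, a proteoglycan of the Sparc family, at -2.26 with overlapping groups, Ccn5 (Wisp2) at -0.71, also with overlapping groups, the elastic fibre glycoprotein Emilin1 at -0.52 and fibulin 1 (Fbln1) at -0.46, with unadjusted p from 0.0103 to 0.0460.

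Receptors, binding partners and upstream regulators of these proteins formed a list of 28, all tested. None passed an adjusted p of 0.05 by edgeR, and 24 of the 28 had an unadjusted p above 0.05, where 7.21% of all genes tested were under it. The median log2 fold change was 0.20, with 20 of 28 above 0 beside the 48.4% of all genes. Lox, the collagen crosslinking enzyme whose activation periostin aids, was higher by 0.75 on the log2 scale, with overlapping groups (unadjusted p 0.0162). For Matn3, a cartilage matrilin that binds Comp, the difference on the log2 scale was -0.78 (unadjusted p 0.0178), and for the ligand Tgfb2 it was -0.51 (unadjusted p 0.0227), both with separate groups. The thrombospondin receptor Cd36 and the integrin subunit Itgb3 had log2 fold changes of 0.61 each, with unadjusted p of 0.0637 and 0.0521.

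Marker lists of cell types give the setting of these values. The outer annulus and tendon list (9 genes) summed to 25909, 18453 and 10582 CPM in controls and 22991, 40811 and 36461 CPM in mutants. The sum rested almost wholly on Col1a1, Col1a2 and Fmod. Of the 9 genes, 6 (Col1a1, Col1a2, Tnmd, Mkx, Kera and Egr1) were, like Postn, Tnc, Thbs2 and Thbs4, highest among controls in control replicate 1, and Scx, Fmod and Egr2 were highest in control replicate 2. In mutant replicate 1, Col1a1, Col1a2, Fmod and Mkx were, like Thbs2, lower than in control replicate 1, and the other 5 were higher. In that list 3 of 9 genes were higher in mutants at an unadjusted p under 0.05 (Tnmd, Egr1 and Col1a1), against 2.89% of all genes, and none passed the adjusted threshold by edgeR. The groups overlapped for Egr1 and Col1a1, and Egr1 was at 200.5 CPM in mutant replicate 1 and at 43.8 and 51.1 CPM in the other mutants. The list's median log2 fold change was 0.48, and 0.84 without control replicate 2. The part of the amount of outer annulus or tendon tissue in the values of the 4 genes was not tested.

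The muscle list was lower in mutants, with a median log2 fold change of -3.07 that became 1.24 without control replicate 1, the library with the muscle signal. In that library Postn, Tnc, Thbs2 and Thbs4 were at the highest of the control values, and without it the log2 fold changes of all 4 were larger. Markers of erythroid and neutrophil precursors summed to 299.7, 42.9 and 106 CPM in controls and 302, 401 and 202.5 CPM in mutants, and their median log2 fold change was 1.38, or 0.88 without mutant replicate 2. Endothelial markers summed to 129 to 249.6 CPM in controls and 203 to 225 CPM in mutants, and macrophage markers to 47.0 to 67.9 CPM in controls and 52.6 to 91.6 CPM in mutants. Of the 7 macrophage markers, Cd68 was higher in mutants with separate groups (0.74 on the log2 scale, unadjusted p 0.0401 by edgeR). The other 6 overlapped between groups, Adgre1 and Cd14 among them with values below 0. The median of the list was 0.23, and ran from 0.081 without mutant replicate 1 to 0.53 without control replicate 3. The fibroblast and smooth muscle list had a median log2 fold change of 0.41, and 0.22 without mutant replicate 3. The cartilage list had one of -0.29, and -0.17 without control replicate 2. In the osteoblast list Bglap (1.64, unadjusted p 0.000415) and Bglap2 (1.31, unadjusted p 0.00473) were higher and Runx2 (-0.55, unadjusted p 0.0282) lower in mutants, each with separate groups, and the median of 0.07 ran from -0.25 to 0.59 with 1 library left out, highest without control replicate 1 and below 0 when control replicate 2, control replicate 3 or mutant replicate 2 was left out. The part of these cell types in the values of the 10 genes was not tested.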

How the data were processed

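Whole-disc RNA was sequenced in 3 control and 3 mutant pools. The authors deposited raw counts per gene symbol and library. The submitters' processing notes list STAR 2.5.3a, HTSeq and DESeq2 with GRCm38 (mm10), whereas the methods name HISAT2, StringTie and Ballgown; the strand setting of counting is not given in the sources used here. The authors' table of their own comparison (fold changes, p-values and scaled counts) was not used. Lines that name no gene (39.4% to 43.3% of read pairs without a feature, 12.0% to 18.9% not aligned) were left out of library sizes.

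Counts were scaled by TMM, filtered by filterByExpr (count minimum 10) and tested with the quasi-likelihood test of edgeR 4.0.16 in R 4.3.3, mutant against control, with Benjamini-Hochberg adjustment over 16152 genes and a threshold of 0.05. CPM used TMM-scaled library sizes. All 10 genes were named, with the 3 most similar genes to each. From each other list, at most 6 genes were chosen by smallest p. Marker lists were an exception where levels, signs or the order of libraries were described, and the outer annulus and tendon list was named in full. Genes that these rules name but that are withheld are not reported here. These genes and the lists were chosen with earlier results of these data known. Alternatives were RLE factors, library totals, no filter, a replicate block, DESeq2 1.42.0, limma-voom 3.58.1 with sample quality weights, each library left out, and longest transcript lengths. Counting precision covers counting error only, since reads carried no molecular identifiers.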

Additional observations from a re-analysis of the deposited data

How the results depend on the processing

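Postn, Tnc and Thbs4 were higher in mutants with an unadjusted p under 0.05 in all 13 alternative fits, and Thbs2 was higher in 13 with an unadjusted p under 0.05 in 11. Of the 10 genes, 0 passed an adjusted p of 0.05 by edgeR with all libraries (4 at unadjusted p), 4 without the filter on low counts (Postn, Tnc, Thbs2 and Thbs4), 2 with DESeq2, 2 with DESeq2 and a replicate block, and 0 to 3 with 1 library left out. Of all genes, 1 was called in the main comparison, 245 without the filter (26418 genes tested), 0 by limma-voom with sample quality weights (1476 at unadjusted p), 58 by DESeq2, and 0 to 31 with 1 library left out, the 31 without control replicate 1. The smallest adjusted p of Postn over the alternatives was 0.000967 and the largest 0.999, and of Thbs4 0.00233 and 0.999. The cause was not tested. Thbs3 and Comp were lower in all 13 alternatives, and Thbs3 had an unadjusted p under 0.05 only with library totals (0.0363). The sign of Sparc turned to -0.10 with library totals and -0.10 with weighted limma-voom, and ran from -0.084 to 0.21 with 1 library left out. That of Thbs1 turned to -0.086 with library totals and -0.13 with weighted limma-voom, and ran from -0.14 to 0.16. Neither had an unadjusted p under 0.05 in any of the 13 alternatives. Library totals alone moved the median log2 fold change of all genes from -0.01 to -0.13.

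With the replicate block, edgeR called 0 genes (1002 at unadjusted p) and DESeq2 58. Deviations of same-numbered libraries had correlations across genes of 0.13, -0.17 and 0.09, and those of the other pairs ran from -0.26 to 0.18. With 3 libraries a group, these values cannot decide whether the numbers pair them. With 3 pools a group, the edgeR intervals of Sparc and Comp remained wide although both were counted deeply. Their SEs were 0.39 and 0.31 by edgeR, and 0.20 and 0.22 by DESeq2.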
